A study of Homo sapiens with 12 samples.

Results

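The genes described are 10 enzymes that remove superoxide and peroxides: catalase (CAT), the peroxiredoxins PRDX1, PRDX2, PRDX3, PRDX5 and PRDX6, the superoxide dismutases SOD1 and SOD2, and the glutathione peroxidases GPX1 and GPX4. They were taken by symbol from a table of 28278 genes, and all 10 were found. Their RNA was measured by sequencing in K562, a human erythroleukaemia cell line that can be pushed towards the red cell lineage with sodium butyrate, an inhibitor of histone deacetylases. There were 4 groups of 3 libraries, labelled WT or HRG1-KO and either left untreated (control) or given sodium butyrate. HRG1 is a heme transporter encoded by SLC48A1, and the KO cells lack it by their label. Butyrate was given at 0.75 mM, the first dose 24 h after plating and a second dose 48 h later. Cells were harvested 6 h after the second dose, and the series design gives day 8 of differentiation. Counted from plating, the dose times end before day 8, so these timings do not match as given. All groups share the K562 background and its culture medium. How the knockout was made and how many clones it holds are not given in the sources used here, nor is it stated that replicates were separate cultures, so p-values measure only the spread between these libraries.

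Superoxide made by the respiratory chain and by other enzymes is turned into hydrogen peroxide by superoxide dismutases, SOD1 in the cytosol with copper and zinc and SOD2 in mitochondria with manganese. Hydrogen peroxide is then removed by catalase, a heme enzyme of peroxisomes, by peroxiredoxins, which use a reactive cysteine that thioredoxin mostly regenerates, and by glutathione peroxidases, which use glutathione and, in GPX1 and GPX4, a selenocysteine. Red cells and their precursors carry heme, iron and oxygen together, and catalase, PRDX2 and GPX1 are known as their main peroxide removers.

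Library totals ranged from 19963594 to 30348538 counts. Levels are given as CPM, counts scaled to the size of each library. SLC48A1 ranged from 58.9 to 83.8 CPM over the 6 WT libraries and from 2.94 to 10.1 over the 6 KO libraries, so each KO library lay below each WT library. All 10 K562 and erythroid markers examined, among them GATA1, TFRC and the fetal globins HBG1 and HBG2, were detected. Their summed level moved with the groups, at 6077 to 12414 CPM without and 16256 to 33897 with butyrate in WT, and at 3913 to 6475 and 4561 to 6319 in KO. MS4A1 (B cell) and KRT5 (epithelium) had 0 counts in all 12 libraries. The fibroblast marker list was at 1.87 to 4.65 CPM summed in untreated and 43.2 to 154 in treated libraries, which came from COL1A1, while COL3A1 stayed at 9 counts or fewer and PDGFRA at 1 or fewer. T cell markers summed to 5.65 to 15.5 CPM in WT and 1.07 to 5.15 in KO libraries. Within that list CD3D was lower in KO (log2 difference -7.89 untreated and -3.49 treated) but CD3E higher (4.65 and 6.16). Both had a lowest count of 0 over the libraries, so no test of them is given. The part of any of these lists in the differences that follow was not tested.

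The test was edgeR's quasi-likelihood F-test, without the replicate number in its model. A gene was called at a Benjamini-Hochberg adjusted p below 0.05 over all tested genes. Of the 9 members that passed the filter on low counts, all but GPX1, 5 were called between untreated KO and untreated WT, 1 higher (PRDX1) and 4 lower (CAT, PRDX3, PRDX6 and SOD2), where 22.6% of all tested genes were called, 11.7% higher and 10.9% lower. Between treated KO and treated WT 4 were called, PRDX1 higher and CAT, PRDX3 and PRDX6 lower, beside 19.0% of all tested genes, 10.1% higher and 8.89% lower. Butyrate in WT gave 1 call, the fall of SOD2, beside 2.35% of all genes, 1.80% higher and 0.550% lower. Butyrate in KO gave 0 calls in edgeR, beside 3.40% of all genes, 2.80% higher and 0.595% lower, while 5 members had an unadjusted p under 0.05 (19.8% of all genes) and the DESeq2 Wald test called 2, CAT and PRDX3. With the replicate number as a block edgeR called PRDX3 in KO (adjusted p 0.0213), and in WT it called 2 members, PRDX3 and SOD2. With library size alone as scaling it called CAT in KO (adjusted p 0.0498). The shares of all genes called under butyrate moved with single libraries, from 0.262% to 7.63% in WT and from 0.292% to 5.09% in KO when 1 library was left out. An unadjusted p under 0.05 was also found for 3 members with butyrate in WT (18.0% of all genes) and for 6 by genotype, both in untreated (34.6%) and in treated cells (31.6%). These comparisons share libraries with each other and are not independent. Differences in cell makeup and in RNA per cell cannot be told apart in bulk RNA.

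The median log2 fold change of the 9 members was -0.58 for KO against WT in untreated cells, where the median of all tested genes was 0.02, and -0.41 in treated cells, where it was 0.00. For butyrate it was -0.20 in WT (all genes 0.02) and -0.27 in KO (all genes 0.00). Groups did not overlap for 6 of 9 members between the genotypes in untreated cells (42.3% of all genes, 22.2% higher and 20.2% lower) and for 6 of 9 in treated cells (33.9%, 17.9% higher and 16.0% lower), each time with PRDX1 higher and CAT, PRDX3, PRDX6, SOD1 and SOD2 lower. Under butyrate they did not overlap for 4 of 9 members in WT (21.7%, 11.3% higher and 10.4% lower), with PRDX5 higher, and for 5 of 9 in KO (24.4%, 12.6% higher and 11.8% lower), with CAT higher. Together the 10 genes took 0.218% to 0.241% of all counts in WT without butyrate and 0.182% to 0.195% with it. In KO the share was 0.174% to 0.201% without and 0.158% to 0.190% with butyrate.

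**Figure D1:**
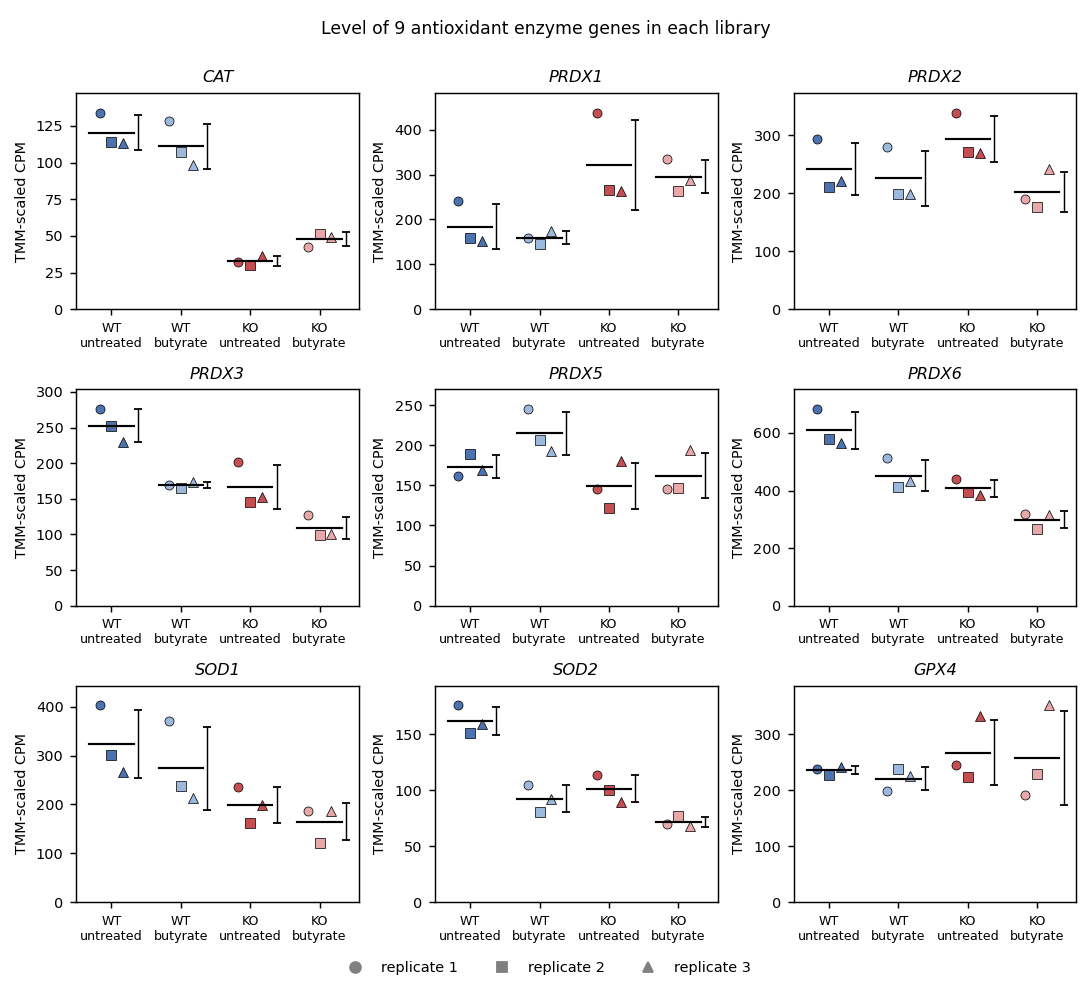
Level of 9 members in each library, in TMM-scaled CPM on linear axes from 0, by group; marker shapes give the replicate number, horizontal lines the group mean and bars at its right the SD (n = 3). CAT lies at 98 to 134 CPM in the 6 WT libraries and at 30.2 to 51.6 in the 6 KO libraries, and PRDX1 is the member with KO above WT in all libraries.

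SOD2, the mitochondrial dismutase, is encoded at chr6:159669057-159745186 on the minus strand (GRCh38). It was at 176, 151 and 159 CPM in replicates 1, 2 and 3 of untreated WT and at 105, 80.9 and 91.9 in treated WT. Untreated KO had 114, 99.9 and 89.9 CPM and treated KO 69.7, 77.2 and 68.2. Untreated WT was thus above every other group with no overlap, and treated KO below every other group. Butyrate lowered SOD2 to 0.572 of its level in WT (log2 fold change -0.81, SE 0.17, edgeR adjusted p 0.0300). In KO the fold was 0.709 (log2 -0.50, SE 0.17, edgeR adjusted p 0.124), and the difference between these responses was 0.31 (SE 0.24, edgeR adjusted p 1.00). In untreated cells KO was at 0.625 of WT (log2 -0.68, SE 0.17, edgeR adjusted p 0.0111), a call held in all 6 fits that left out 1 library. In treated cells the fold was 0.774 (log2 -0.37, edgeR adjusted p 0.15). The butyrate call in WT held in 1 of 6 such fits, that without replicate 1 of treated WT, and was lost without replicate 1, 2 or 3 of untreated WT (edgeR adjusted p 0.12, 0.0840 and 0.0766) or replicate 2 or 3 of treated WT (0.143 and 0.0881). It was also lost when only these 6 libraries were fitted (edgeR adjusted p 0.111).

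The cytosolic dismutase SOD1 (chr21:31659622-31668931, plus strand) was at 403, 302 and 267 CPM in untreated WT and 235, 162 and 199 in untreated KO. Treated WT had 370.4, 237 and 214 CPM and treated KO 187, 121 and 187. KO libraries lay below WT libraries of the same treatment without overlap, but the spread within each group was wide, with replicate 1 highest in both WT groups. Without butyrate SOD1 in KO reached 0.613 of WT (log2 -0.71, SE 0.27, edgeR adjusted p 0.0757) and with butyrate 0.602 (log2 -0.73, SE 0.27, adjusted p 0.0750). With the replicate number as a block in the model both passed, with edgeR adjusted p 0.0105 and 0.0115. The butyrate log2 fold change of SOD1 was -0.24 in WT (edgeR adjusted p 0.691) and -0.27 in KO (adjusted p 0.623), within the replicate spread. The extracellular dismutase SOD3 had 8, 16 and 2 counts in untreated WT and 60, 36 and 21 in treated WT. It had 0 counts in 5 of the 6 KO libraries and 4 in replicate 2 of treated KO. SOD3 passed the filter on low counts through WT libraries only, so no test of it is given.

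Catalase, at chr11:34438925-34472062 on the plus strand, showed the largest genotype difference of the 9 members tested. CAT was at 134, 114 and 113 CPM in untreated WT and 128, 107 and 98 in treated WT. Untreated KO had 32.2, 30.2 and 36.4 CPM and treated KO 42.5, 51.6 and 49.3. No KO library came near a WT library, and the treated KO libraries all lay above the untreated ones. Without butyrate CAT in KO reached 0.274 of WT (log2 -1.87, SE 0.18, edgeR adjusted p 1.44e-05) and with butyrate 0.430 (log2 -1.22, SE 0.17, adjusted p 0.000412). Both calls held in all 6 fits that left out 1 library. Butyrate left WT at 0.923 of its untreated level (log2 -0.12, SE 0.17, edgeR adjusted p 0.785) and put KO at 1.45 (log2 0.54, SE 0.17, adjusted p 0.109). The difference between these responses was 0.65 (SE 0.24, unadjusted p 0.0186, edgeR adjusted p 0.983), the only member with an unadjusted p under 0.05 there. In KO the butyrate difference passed in the DESeq2 Wald test (adjusted p 0.0208) and with library size alone as scaling (edgeR adjusted p 0.0498).

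The sequence before the CAT start is shown because this member differed most, beside those of PRDX3 and SOD2, both also lower in untreated KO. Each is the 250 bases before a RefSeq transcript start (GRCh38.p14), written 5′ to 3′ on the gene's strand, with capitals marking the motif CCAAT, the motif GGGCGG and the motif TGACNNNGC on either strand. They lie at chr11:34438684-34438933 (plus), chr10:119178813-119179062 (minus) and chr6:159693242-159693491 (minus). The table lists 4 starts for SOD2, and the one shown has the lowest coordinate.
Catalase promoter: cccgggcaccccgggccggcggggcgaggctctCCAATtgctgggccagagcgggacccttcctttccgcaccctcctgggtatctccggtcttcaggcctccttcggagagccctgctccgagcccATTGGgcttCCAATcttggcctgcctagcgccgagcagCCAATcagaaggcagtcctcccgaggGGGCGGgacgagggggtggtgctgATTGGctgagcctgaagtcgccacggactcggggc
PRDX3 promoter: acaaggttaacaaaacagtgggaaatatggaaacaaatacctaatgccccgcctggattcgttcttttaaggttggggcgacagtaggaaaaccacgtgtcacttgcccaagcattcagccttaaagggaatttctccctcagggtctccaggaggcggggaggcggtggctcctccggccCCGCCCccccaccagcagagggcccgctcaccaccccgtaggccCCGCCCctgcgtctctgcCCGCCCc
SOD2 promoter: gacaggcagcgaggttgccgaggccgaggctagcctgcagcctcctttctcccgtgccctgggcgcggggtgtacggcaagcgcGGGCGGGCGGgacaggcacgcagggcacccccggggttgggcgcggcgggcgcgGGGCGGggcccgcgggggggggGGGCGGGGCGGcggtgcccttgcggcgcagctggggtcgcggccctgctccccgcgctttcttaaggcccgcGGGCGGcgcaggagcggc
CAT had 5 CCAAT matches, 3 on the strand shown and 2 on the other, and 1 GGGCGG match, while PRDX3 had 0 and 3 and SOD2 0 and 6, some of the last overlapping. The other 3 SOD2 starts had 0 to 3 CCAAT and 1 to 4 GGGCGG matches. At least 1 CCAAT occurred in 32% and at least 1 GGGCGG in 42.6% of 35116 such windows. TGACNNNGC, the core of the antioxidant response element, occurred in 10.9% of windows and in none of the windows of the 7 members that had an entry. CCAAT is the core of the site of the factor NF-Y and GGGCGG that of Sp1. These are matches of letters only.

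PRDX1, a cytosolic peroxiredoxin also bound by heme, was the member that was higher in KO. It lies at chr1:45511036-45523047 on the minus strand. It was at 242, 159 and 151 CPM in untreated WT and 159, 146 and 174 in treated WT. Untreated KO had 438, 266 and 263 CPM and treated KO 335, 264 and 287. The lowest KO library was above the highest WT library, with replicate 1 of untreated KO well above the rest. KO was at 1.75 times WT in untreated cells (log2 0.81, SE 0.25, edgeR adjusted p 0.0313) and 1.85 times in treated cells (log2 0.89, SE 0.25, adjusted p 0.0239). Without replicate 1 of untreated KO the first value was 0.53 (edgeR adjusted p 0.15), and it was also lost without replicate 2 (0.113) or 3 (0.129) of untreated WT. The call in treated cells was lost without replicate 2 of treated WT (edgeR adjusted p 0.0880) or replicate 1 of treated KO (0.0720). The butyrate log2 fold change of PRDX1 was -0.20 in WT (edgeR adjusted p 0.725) and -0.13 in KO (adjusted p 0.827), and groups overlapped. In GENCODE 29, 379 exonic bases of PRDX1, or 30.3%, are shared with MMACHC on the opposite strand, and the use of strand in counting is not given in the sources used here. MMACHC, a cobalamin-processing protein, was at 8.71 ± 0.527 CPM (SD, n = 3) in untreated WT and 15.4 ± 1.59 in untreated KO, with a log2 difference of 0.82 (edgeR adjusted p 0.0739).

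PRDX6, which also reduces phospholipid peroxides and takes its electrons from glutathione, lies at chr1:173477266-173488807 on the plus strand. It was at 683, 579 and 566 CPM in untreated WT and 512, 411 and 432 in treated WT. Untreated KO had 441, 395 and 385 CPM and treated KO 317, 265 and 315. Every KO library lay below every WT library of the same treatment. KO was at 0.668 of WT in untreated cells (log2 -0.58, SE 0.17, edgeR adjusted p 0.0288) and 0.661 in treated cells (log2 -0.60, SE 0.17, adjusted p 0.0294). Butyrate gave log2 changes of -0.43 in WT (edgeR adjusted p 0.212) and -0.45 in KO (adjusted p 0.174), each with no overlap between the groups.

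PRDX3, the peroxiredoxin of the mitochondrial matrix, lies at chr10:119167703-119178833 on the minus strand. It was at 276, 252 and 230.2 CPM in untreated WT and 169.9, 165 and 173 in treated WT. Untreated KO had 202, 146 and 152 CPM and treated KO 127, 98.7 and 101. Treated KO was below all other libraries and untreated WT above all of them. KO was at 0.660 of WT in untreated cells (log2 -0.60, SE 0.18, edgeR adjusted p 0.0303) and 0.643 in treated cells (log2 -0.64, SE 0.18, adjusted p 0.0265). Butyrate gave log2 changes of -0.58 in WT (SE 0.18, edgeR adjusted p 0.117) and -0.61 in KO (SE 0.18, adjusted p 0.0850). With the replicate block both passed, with edgeR adjusted p 0.0336 and 0.0213. The interaction was -0.04 (SE 0.25, edgeR adjusted p 1.00).

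The genotype calls of PRDX3 and PRDX6 were close to the threshold. In untreated cells that of PRDX3 was lost without replicate 1 (edgeR adjusted p 0.0981) or 2 (0.0752) of WT or replicate 2 (0.0972) or 3 (0.0821) of KO, and that of PRDX6 without replicate 1 (0.105) or 2 (0.0590) of WT or replicate 1 (0.0511), 2 (0.0701) or 3 (0.0706) of KO. In treated cells that of PRDX3 was lost without replicate 2 (edgeR adjusted p 0.0645) or 3 (0.0591) of WT or replicate 2 (0.0823) or 3 (0.0729) of KO, and that of PRDX6 without replicate 1 (0.0650) or 2 (0.0510) of WT or replicate 1 (0.0571) or 2 (0.0857) of KO. The values themselves stayed between -0.76 and -0.53 for PRDX3 and between -0.66 and -0.49 for PRDX6 over these fits. PRDX6 was also lost without all libraries numbered 1, with edgeR adjusted p 0.0539 without and 0.0595 with butyrate.

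**Figure D2:**
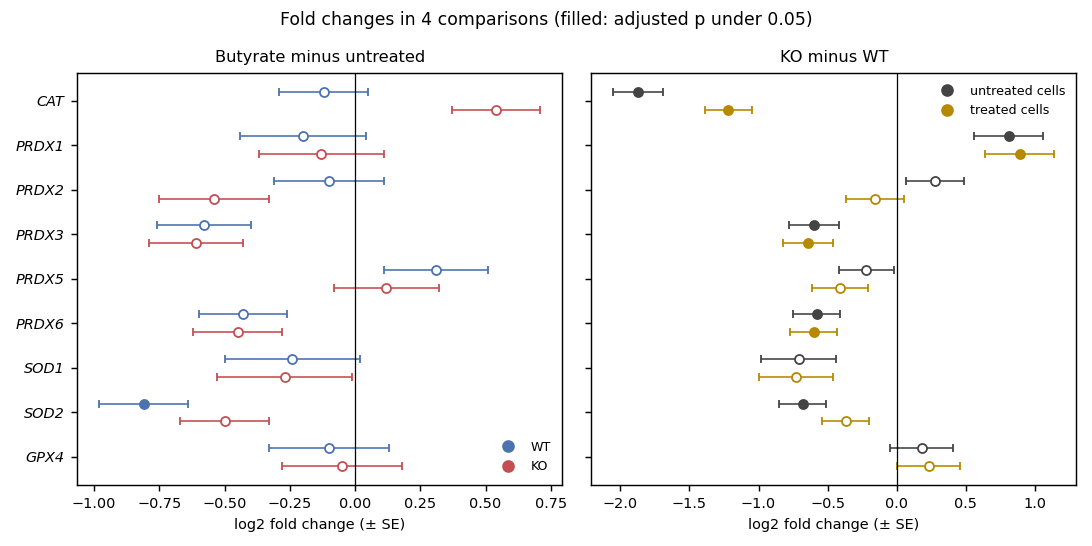
Log2 fold changes of 9 members with their SE (12 libraries in 1 model), for butyrate against untreated cells at the left (blue WT, red KO) and for KO against WT at the right (dark grey untreated, yellow treated); filled points have an edgeR adjusted p under 0.05. PRDX1 has the only filled points above 0, and PRDX3 and PRDX6 have nearly the same value in both genotype comparisons.

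PRDX2, the abundant cytosolic peroxiredoxin of red cells (chr19:12796820-12801859, minus strand), was called in none of the 5 comparisons. In WT it averaged 242 ± 44.4 CPM (SD, n = 3) without and 226 ± 47.1 with butyrate, and in KO 294 ± 39.3 and 202 ± 34. Genotype groups overlapped in both settings, with log2 differences of 0.28 (edgeR adjusted p 0.390) and -0.16 (adjusted p 0.668). Treated KO libraries all lay below untreated KO libraries, at a log2 change of -0.54 (SE 0.21, unadjusted p 0.0261, edgeR adjusted p 0.183). In GENCODE 29 an antisense gene covers 296 of its exonic bases.

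PRDX5, found in mitochondria, peroxisomes and cytosol (chr11:64318088-64321811, plus strand), was likewise called in none. WT libraries averaged 173 ± 14.1 CPM (SD, n = 3) without and 215 ± 27.2 with butyrate, and KO libraries 149 ± 29 and 161 ± 28.2. Treated WT libraries were all above untreated ones, at a log2 fold change of 0.31 (edgeR adjusted p 0.448, SE 0.20), while in KO the groups overlapped (0.12, adjusted p 0.797). The genotype difference was -0.22 without butyrate (edgeR adjusted p 0.479) and -0.41 with it (adjusted p 0.174).

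PRDX4, the peroxiredoxin of the endoplasmic reticulum and no member of the set, had 81.7 ± 21.4 CPM (SD, n = 3) in untreated WT and 127 ± 25.6 in untreated KO, a log2 difference of 0.64 (edgeR adjusted p 0.0709), and 63.4 ± 13.9 against 92.1 ± 7.44 in treated cells (0.54, adjusted p 0.134).

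The makeup of the peroxiredoxin counts, here PRDX1 to PRDX6 with PRDX4 included, held less PRDX6 and more PRDX1 in KO than in WT. PRDX6 took 39.6% ± 0.662 (SD, n = 3) of them in untreated WT and 28.0% ± 2.30 in untreated KO, and 35.2% ± 0.268 and 25.8% ± 0.327 in treated cells. PRDX1 took 11.8% ± 1.69 in untreated WT and 21.7% ± 3.53 in untreated KO, and 12.5% ± 1.59 and 25.5% ± 2.16 in treated cells. In WT, PRDX3 took 16.4% ± 0.847 without and 13.3% ± 1.31 with butyrate, and in KO 11.3% ± 0.496 and 9.40% ± 1.1. The shares of PRDX1, PRDX3, PRDX4 and PRDX6 did not overlap between the genotypes with or without butyrate (two-sided exact permutation p 0.1 each, the smallest that 3 libraries against 3 allow). Shares of one total are tied to each other, so a higher share of PRDX1 lowers the others.

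**Figure D3:**
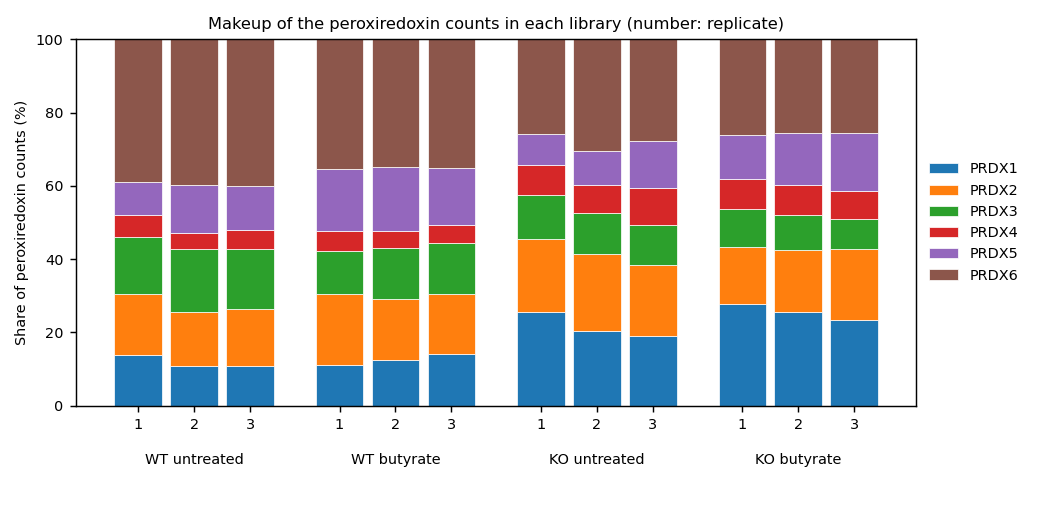
Share of each peroxiredoxin in the summed counts of PRDX1 to PRDX6, in percent, for each of the 12 libraries, numbered by replicate within its group. PRDX6, at the top of each bar, takes 34.9% to 40.0% in WT and 25.6% to 30.4% in KO libraries, and PRDX1, at the bottom, 10.7% to 14.2% in WT and 18.9% to 27.6% in KO.

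Levels of different genes were compared per kilobase of exonic length in GENCODE 29. In untreated WT the order was PRDX6 (348 ± 36.6 CPM per kb; SD, n = 3), PRDX2 (245 ± 45.0), PRDX5 (194 ± 15.8), PRDX3 (159 ± 14.3), PRDX1 (147 ± 40.1) and PRDX4 (60.0 ± 15.7). Of neighbours in that order, PRDX3 and PRDX1 differed by less than their spread. In untreated KO the order was PRDX2 (298 ± 39.8 CPM per kb), PRDX1 (257 ± 80.0), PRDX6 (233 ± 17.0), PRDX5 (167 ± 32.4), PRDX3 (105 ± 19.6) and PRDX4 (93.2 ± 18.8). There the leading 3 differed from their neighbours by less than the SD of PRDX1, and PRDX3 and PRDX4 by less than their spread.

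GPX4, the selenoenzyme that reduces lipid peroxides within membranes (chr19:1103926-1106791, plus strand), passed the test in no comparison. WT averaged 236 ± 7.37 CPM (SD, n = 3) without and 220.5 ± 20.5 with butyrate, and KO 268 ± 57.3 and 258 ± 83.3. The spread in KO came from replicate 3, at 333 CPM untreated and 352 treated, beside 192 to 246 in replicates 1 and 2. Its log2 differences lay between -0.10 and 0.23 in the 2 butyrate and 2 genotype comparisons, with edgeR adjusted p from 0.560 to 0.934.

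GPX1, the abundant cytosolic glutathione peroxidase of most tissues (chr3:49357171-49358600, minus strand), had 9, 4 and 2 counts in WT without butyrate and 6, 6 and 4 with it, and in KO 7, 2 and 0 without and 1, 5 and 6 with it. It thus had at most 9 counts in any library, where 3 counts were the limit of detection, and was not tested. GENCODE 29 classes this locus as a polymorphic pseudogene and RefSeq as protein coding, and 2 pseudogenes are named after it. How reads that match several places were counted is not given in the sources used here, so this row is reported as uncertain and gives no level of GPX1 RNA. The same holds in part for PRDX2 and PRDX3, with 4 named pseudogenes each, SOD1 with 3, and PRDX1 and SOD2 with 1 each, none of which had a row of its own.

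The other glutathione peroxidases were low. GPX2, GPX3, GPX6 and GPX7 did not exceed 1.47 CPM in any library, and GPX8, an endoplasmic reticulum member, ranged from 1.61 to 10.4 CPM. GPX5, known from the epididymis, had 0 counts in all 3 untreated WT libraries and 2, 4 and 0 in untreated KO. It had 0, 78 and 20 counts in treated WT and 58, 248 and 60 in treated KO. Replicate 1 of treated WT was thus the treated library with 0 counts of GPX5. GPX5 passed the filter on low counts through treated libraries only, so no test of it is given. GPX3 had 0.595 ± 0.273 CPM (SD, n = 3) in untreated KO and 0.141 ± 0.0419 in untreated WT. As it passed the same filter through KO libraries only, it has no test here either.

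The partners of these enzymes were read from lists of the thioredoxin system, the glutathione system, NADPH supply, selenocysteine and metal loading, and oxidant sources and lipid peroxide guards. Of all tested genes, 22.6% were called by genotype in untreated cells (median log2 0.02) and 19.0% in treated cells (median 0.00). Under butyrate 2.35% were called in WT and 3.40% in KO. The counts of each list stand beside these shares, and no list was tested as a set. Of 13 thioredoxin genes tested, 1 was higher and 3 were lower in untreated KO than in untreated WT (median log2 -0.14), and thioredoxin itself was not called (TXN -0.38, edgeR adjusted p 0.253), nor was its cytosolic reductase (TXNRD1 -0.51, adjusted p 0.105). The calls were TXNDC12 (log2 1.03), TXNL1 (-1.0), TXNRD3 (-3.64, SE 1.15) and SESN3 (-3.30, SE 0.59). Whether TXNRD3 passed the filter on low counts through WT libraries only was not examined. Sulfiredoxin, which repairs overoxidized peroxiredoxins, differed by -0.14 (SRXN1, edgeR adjusted p 0.753). In treated cells 1 was higher and 2 were lower, TXNDC12 (1.29), TXNL1 (-1.29) and SESN3 (-1.64). With butyrate 0 passed in WT and 1 in KO, where SESN3, a stress-responsive sestrin, rose (3.10, edgeR adjusted p 0.0179). In WT SESN3 had the same sign without a call (1.44, edgeR adjusted p 0.179).

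Of 16 glutathione genes, 3 were higher and 4 lower in untreated KO (median -0.19), beside 22.6% of all tested genes called. In treated KO 2 were higher and 3 lower (median 0.07), beside 19.0% of all tested genes. Glutathione reductase, which returns oxidized glutathione to its reduced form, was lower in KO (GSR log2 -1.27, SE 0.17, edgeR adjusted p 0.000182, and -0.63, adjusted p 0.0189, with treatment). The subunits of glutamate-cysteine ligase, the rate-limiting step of glutathione synthesis, differed in sign, with the catalytic GCLC at 1.09 (edgeR adjusted p 0.00184) and the modifier GCLM at -0.88 (adjusted p 0.00770) in untreated cells. In treated cells GCLC was not called (0.19, edgeR adjusted p 0.568), while GCLM was lower in KO (-0.78, adjusted p 0.0171). The microsomal transferase MGST1 was higher in KO (1.69, edgeR adjusted p 0.000641) and fell with butyrate in WT (-1.27, adjusted p 0.0300) and in KO (-1.44, adjusted p 0.0147). OPLAH, which recycles oxoproline to glutamate, was lower in KO (-2.43 untreated, edgeR adjusted p 0.000520, and -1.82 treated, adjusted p 0.00386). MGST2 was higher in KO both untreated (1.04, edgeR adjusted p 0.0264) and treated (1.77, adjusted p 0.00175). Glutaredoxin rose with butyrate in WT (GLRX 2.28, edgeR adjusted p 0.0359). In KO it had the same sign without a call (1.28, edgeR adjusted p 0.158).

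Of the genes of NADPH supply, TALDO1, transaldolase of the pentose phosphate pathway, was at 542 ± 63.9 CPM (SD, n = 3) in untreated WT and 158 ± 15.8 in untreated KO (log2 -1.78, SE 0.19, edgeR adjusted p 3.07e-05), and was also lower in treated KO (-1.23, adjusted p 0.000586). The mitochondrial transhydrogenase NNT fell with butyrate in WT (-0.90, edgeR adjusted p 0.0127), and in KO it had the same sign without a call (-0.42, adjusted p 0.145). In treated cells NNT (0.82, edgeR adjusted p 0.00239) and malic enzyme ME1 (1.09, adjusted p 0.0479) were higher in KO. Of 12 genes tested for selenocysteine and metal loading, 1 was higher (SEPSECS 0.72) and 1 lower (TRNAU1AP -0.81) in untreated KO, beside 22.6% of all tested genes called. Both are factors of selenocysteine synthesis or insertion. In treated KO 2 were higher (ATOX1 1.04 and SEPHS2 0.63) and 2 lower (TRNAU1AP -0.89 and SLC25A39 -0.63), beside 19.0% of all tested genes called. SLC25A39, the mitochondrial glutathione carrier, rose with butyrate in WT (0.83, edgeR adjusted p 0.0470), and in KO it had the same sign without a call (0.58, adjusted p 0.123). The copper chaperone of SOD1 was not called in untreated KO against WT (CCS -0.36, edgeR adjusted p 0.482). Of 8 oxidant sources and guards tested, 2 were higher and 3 lower in untreated KO, beside 22.6% of all tested genes called. Among them were the NADPH oxidase subunits CYBB (3.98, SE 0.91) and CYBA (-0.99) and the quinone reductase AIFM2 (-1.54). The ferritin light chain, which stores iron, was another (FTL -1.30, edgeR adjusted p 0.000585). Whether CYBB passed the filter on low counts through KO libraries only was not examined. In treated KO 2 were higher and 3 lower, beside 19.0% of all tested genes called. Among them were CYBB (2.91, SE 0.87), FTL (-1.30), the ferritin heavy chain FTH1 (-1.07) and ACSL4 (-0.87).

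The gene with the pattern most like that of each member was found by Pearson's correlation of log2 CPM over the 12 libraries, which share groups, numbers and scaling, so the values are a description without a test. For CAT it was TALDO1 (r = 0.994), for SOD1 the respiratory chain subunit NDUFB11 (0.991), for SOD2 the sterol enzyme CYP51A1 (0.977), for PRDX1 ERG28 (0.974), for PRDX3 the respiratory chain subunit NDUFA5 (0.965) and for PRDX6 LSM2 (0.964). For PRDX5 it was RPL28 (0.941), for PRDX2 PHPT1 (0.924) and for GPX4 LOC400499 (0.924). Within the set, PRDX3 and PRDX6 were the most alike pair (0.96), each was at 0.92 with SOD2, and CAT and PRDX1 ran opposite (-0.83).

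Genes next to the members were examined as well, a check chosen after the values were seen. For each member the 5 tested genes on either side by RefSeq order were taken. Around CAT the 10 neighbours had a median log2 difference of 0.27 in untreated and 0.15 in treated cells. Among them the adhesion receptor CD44 was at -7.91 in untreated and -6.27 in treated cells. Whether CD44 passed the filter on low counts through WT libraries only was not examined, so no test of it is given. The adjacent ABTB2 (0.46) and EHF (-0.88) were not called, and chromosome 11 had a median of -0.13. CAT thus lay well below most of the genes around it.

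Around SOD1, on chromosome 21, 9 of 10 neighbours were below 0 in untreated and 10 of 10 in treated cells, with medians of -0.54 and -0.42 and a chromosome median of -0.33 and -0.35. The adjacent SCAF4 (-1.04, edgeR adjusted p 0.000584) and nearby BACH1 (-0.82, adjusted p 0.00642), a heme-sensing repressor, were among the 3 called lower in untreated cells. SOD1, at -0.71, was within the range of its neighbours. The part of the chromosome in this difference was not tested. Around PRDX3 the neighbours' median was -0.36 in untreated and -0.46 in treated cells, with 7 and 8 of 10 below 0. It was 0.05 and -0.05 around PRDX6, 0.29 and 0.31 around PRDX1, and -0.05 and -0.32 around SOD2. Around PRDX5, itself at -0.22 and -0.41, it was -1.11 in untreated and -0.31 in treated cells, with 9 and 8 of 10 below 0. Around PRDX2 it was -0.03 and -0.17, and around GPX4 0.26 and 0.40.

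**Figure D4:**
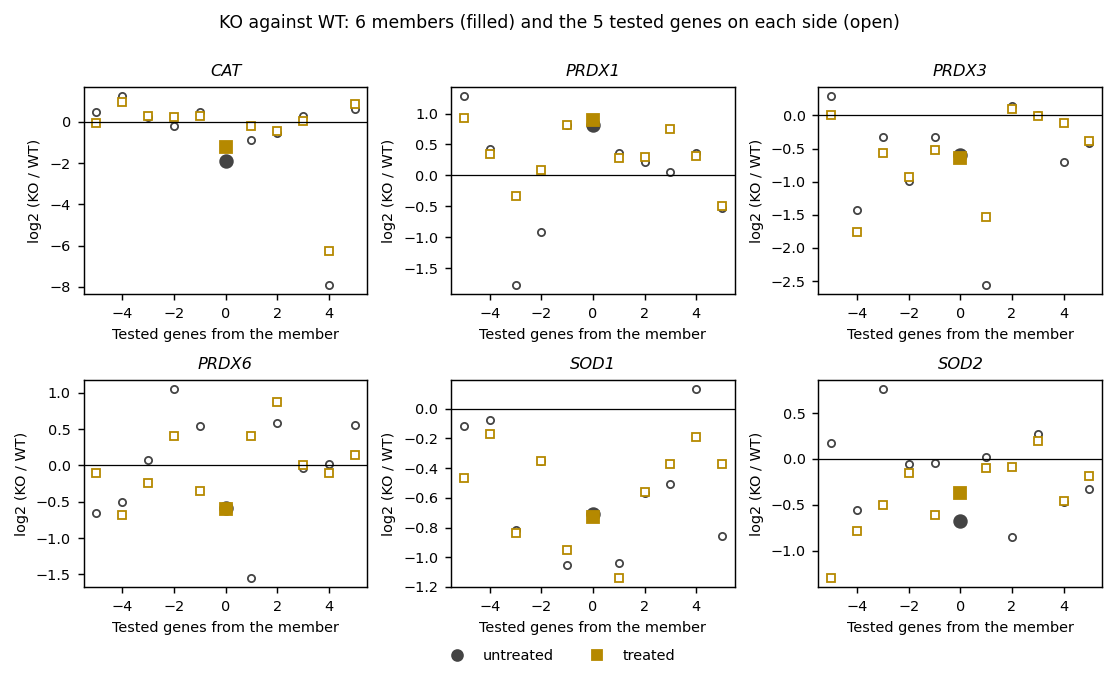
Log2 difference of KO against WT for 6 members (filled, at 0 on the horizontal axis) and for the 5 tested genes on each side of them by position (open); circles are untreated and squares treated cells, and vertical scales differ between panels. SOD1 sits among neighbours that are nearly all below 0, whereas CAT lies below all but 1 of its neighbours, CD44.

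The response to butyrate was also compared between the genotypes by their interaction, the change in KO minus the change in WT. In edgeR 0 of the 9 members passed, beside 0.00% of all genes, and 1 had an unadjusted p under 0.05 (CAT, above), beside 4.16% of all genes. The DESeq2 Wald test called 0 members. For PRDX3, PRDX6 and SOD1 the interaction was -0.04, -0.01 and -0.02, with SE of 0.25, 0.24 and 0.37.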

How the data were processed

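Per the labels' protocols, RNA of K562 cells was extracted with TRIzol and libraries were made by a service provider. The authors deposited 1 table of raw counts per gene symbol, the unit being read from the values. The submitters' processing notes list FastQC 0.12.1, STAR 2.7.11b and the build hg38. The counting tool, annotation, strand setting and filters are not given in the sources used here. All 12 columns were matched to samples by library name, 0 were unused and 0 lines named no gene.

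In R 4.3.3, genes were kept by filterByExpr (minimum count 10), leaving 15805 tested genes, and scaled by TMM in edgeR 4.0.16. The quasi-likelihood F-test of 5 comparisons came from 1 fit of the 12 libraries with 4 group means, a procedure tested on simulated data, with Benjamini-Hochberg adjustment over all tested genes and a threshold of 0.05. SEs come from the F statistic. CPM are TMM-scaled; log2 CPM used a prior count of 2. Values of 3 counts or fewer, 0.0989 to 0.15 CPM by library size, were taken as the limit of detection, which covers counting error only. Alternatives were DESeq2 1.42.0, other scalings and filters, a replicate block and left-out libraries. Gene positions come from GENCODE 29 (GRCh38), and neighbours and promoters from RefSeq GRCh38.p14. Of the tested genes 96.0% were matched to RefSeq, and 7 of 10 members had a promoter entry.

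Libraries with the same replicate number deviated together from their group means. The correlation over genes was 0.195 to 0.409 for butyrate in WT and 0.147 to 0.468 in KO. For genotype it was 0.210 to 0.361 in untreated and 0.315 to 0.595 in treated cells. All were above the limit of 0.1, so the numbers were taken to pair the libraries, but in the replicate block alone. The highest values between different numbers were 0.186, 0.123, 0.0692 and 0.343, the last above the lowest same-number value of its comparison. The labels do not say what a number stands for. Calls and p-values not marked as those of the block leave this pairing out.

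Named genes are the 10 members, the rest of their families, SLC48A1, called genes of 5 partner lists (up to 4 per list and comparison), and the gene most like each member. TXN, TXNRD1, SRXN1 and CCS, and the neighbouring genes, were named after their values were seen. Members and lists were chosen with earlier results of these data known. The result of 1 gene of the NADPH list, and with it the list's counts, is not reported here.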

Additional observations from a re-analysis of the deposited data

How the results depend on the processing

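The number of called members changed with the settings as follows. Butyrate in WT gave 1 call in the model described, 2 with the DESeq2 Wald test, 2 with the replicate block (PRDX3 and SOD2) and 0 with only the libraries of the comparison, and 0 to 1 when 1 library was left out. Butyrate in KO gave 0 in the model described, 1 with library size alone, 2 with the DESeq2 Wald test, 1 with the replicate block, 1 without the libraries numbered 1, and 0 in each fit that left out 1 library. KO against WT in untreated cells gave 5, 3 with no filter on low counts and 2 to 4 with 1 library left out. In treated cells it gave 4, 2 with only the libraries of the comparison and 1 to 3 with 1 library left out. The replicate block gave 6 and 5 there, by adding SOD1. The interaction gave 0 members in every setting run. Over all genes the block raised the calls from 372 to 1361 for butyrate in WT and from 537 to 1852 in KO. The DESeq2 Wald test gave 1331 and 1538, and fitting only the libraries of the comparison gave 63 in WT. Without the libraries numbered 1 they were 1884 and 2164. Each left-out library moved these counts by over 1.5 times, in WT from 43 (without replicate 2 of untreated WT) to 1243 (without replicate 1 of treated WT), and in KO from 48 (without replicate 2 of untreated KO) to 833 (without replicate 1 of treated KO). At least 10 counts in every library gave 304 for butyrate in KO, 2334 in place of 3574 for genotype in untreated cells and 1947 in place of 3009 in treated cells, where the comparison's own libraries gave 1802 and the block 4612. The interaction, with 0 genes called, gave 86 with the DESeq2 Wald test, 2 with no filter, 1 with at least 10 counts in every library, 3 with the block, 9 without the libraries numbered 1, and 0 to 2 with 1 library left out. The block changed no other member's call. With library size alone the median of all genes under butyrate in KO was 0.12 in place of 0.00. The calls of CAT held in each setting run for both genotype comparisons.

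Changes of sign occurred in values that were not called. Without the libraries numbered 1, PRDX1 was 0.03 for butyrate in WT and 0.04 in KO, GPX4 was 0.04 for butyrate in KO, and PRDX2 was 0.05 for genotype in treated cells. With library size alone, butyrate in KO gave 0.01 for PRDX1 and 0.07 for GPX4, and GPX4 was 0.02 with at least 10 counts in every library. In the interaction, library size alone gave 0.07 for PRDX3, 0.10 for PRDX6 and 0.11 for SOD1. PRDX6 was 0.01 with DESeq2 size factors, 0.01 with the DESeq2 Wald test, 0.00 with at least 10 counts in every library and 0.01 without the libraries numbered 1, where PRDX5 was 0.00 and SOD1 0.10. Leaving out 1 library gave for butyrate in WT -0.32 to 0.04 (PRDX1) and -0.29 to 0.06 (PRDX2), and in KO -0.24 to 0.15 (PRDX1), -0.03 to 0.28 (PRDX5) and -0.33 to 0.14 (GPX4). For genotype it gave -0.04 to 0.27 (GPX4, untreated), -0.07 to 0.40 (GPX4, treated) and -0.31 to 0.01 (PRDX2, treated). For the interaction it gave -0.17 to 0.36 (PRDX1), -0.16 to 0.12 (PRDX3), -0.10 to 0.10 (PRDX6), -0.21 to 0.27 (SOD1) and -0.23 to 0.24 (GPX4). The cause was not tested.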
